A study of Mus musculus with 12 samples.

Results

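Selenoproteins are the few proteins that carry selenocysteine, an amino acid inserted at an in-frame UGA codon that would otherwise end translation. The ribosome reads such a UGA only when the mRNA carries a selenocysteine insertion element and when a dedicated elongation factor delivers the selenocysteine tRNA. The liver is the main source of circulating selenoprotein P, which carries selenium to other organs. A set of 10 such genes was examined in mouse liver ribosome profiling (Ribo-seq), which counts the mRNA fragments that ribosomes protect. They were chosen by symbol, with the glutathione peroxidases left out, and all 10 of 10 were found among 25033 entries of the Ribo-seq table: Selenop, Selenof, Selenok, Selenom, Selenos, Selenot, Selenow, Selenoh, Selenon and Selenoo.

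The libraries came from livers of male C57BL/6 mice aged 16 weeks that had received their diets for 8 weeks from week 8. HFD mice ate a high-fat diet and LYC mice ate the same diet with lycopene, a carotenoid, so that every mouse was on high fat and no chow-fed group enters. There were 3 Ribo-seq libraries per group (HFD1 to HFD3 and LYC1 to LYC3), and liver was treated with cycloheximide, which holds ribosomes on the mRNA. The titles number 3 replicates in each group, which the paper describes as biological, whereas the labels also speak of pooling before library construction. The p-values thus measure the spread between libraries, which may be partly technical. The level of a gene is its RPKM, reads scaled by gene length in kilobases and by library size, as deposited.

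Each member was first placed on the GRCm38 (mm10) genome with the RefSeq annotation, since the position of the UGA decides how much of the protein lies beyond it. The 10 genes held 19 annotated selenocysteine codons, all 19 of them TGA in the genome, and 10 of these were in Selenop. In 5 of 10 genes the first UGA lay early in the coding sequence: Selenow (codon 13 of 88), Selenop (59 of 380), Selenot (49 of 195), Selenoh (38 of 116) and Selenom (48 of 145). In 3 of 10 genes the UGA was among the last 3 codons before the stop, namely Selenok (92 of 94), Selenos (189 of 190) and Selenoo (665 of 667). Selenof (93 of 162) and Selenon (428 of 557) lay between. The remaining 9 UGA codons of Selenop were all in its last exon, from codon 259 to codon 377.

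The sequences shown are those of the members whose LYC and HFD libraries did not overlap in deposited RPKM (Selenop, Selenot and Selenok), of the earliest UGA (Selenow) and of the 2 others that lie next to the stop (Selenos and Selenoo). Each gives the coding strand 5′ to 3′ from RefSeq on GRCm38, with the UGA (TGA in DNA) in capitals and up to 12 coding bases on either side, cut at the stop codon. The stretch for the last UGA of Selenop (codon 377) also holds that of codon 375, which is left in lower case.
Selenop, first UGA: cttcaagccagcTGAtacttgtgtctt
Selenop, last UGA: aggaagtgaaaaTGAcattcaaactaa
Selenot: atttgtgtatccTGAgggtaccggcgg
Selenok: atggctggtggaTGAggaaggtaa
Selenow: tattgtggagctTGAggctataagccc
Selenos: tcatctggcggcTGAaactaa
Selenoo: ctctgtgtaacaTGAtcctcataa

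All of these codons are in coding exons. The first UGA of Selenop is at chr15:3274848-3274850 and the last at chr15:3279696-3279698, both on the plus strand. That of Selenot is at chr3:58585238-58585240 and that of Selenok at chr14:29973440-29973442, both plus. The codon of Selenow is at chr7:15920464-15920466 on the minus strand, that of Selenos at chr7:66088844-66088846 (plus) and that of Selenoo at chr15:89099975-89099977 (plus). The UGA of Selenok ended 5 bases before the last exon junction, whereas those of Selenos and Selenoo were already in the last exon. The base after a UGA is known to influence how well it ends translation, and after the first UGA of the 10 genes it was G in 4, A in 2, C in 2 and T in 2. Selenow is the only member of the 10 whose annotated stop codon is also TGA, so that its mRNA uses the same triplet in both roles.

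**Figure D1:**
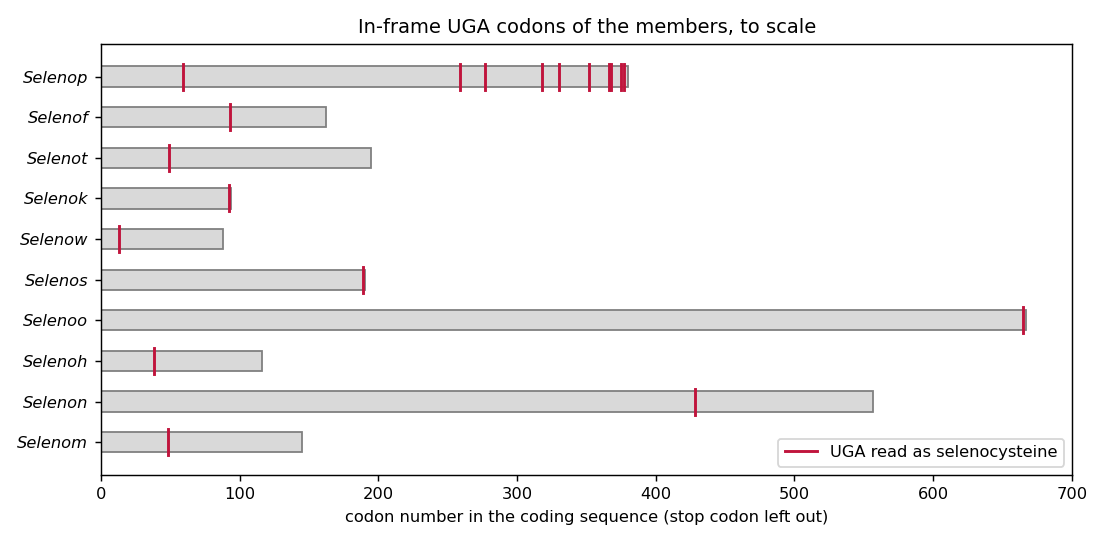
Position of the in-frame UGA codons (red ticks) along the coding sequence of each member (grey bar, to scale), with the codon number on the x axis. Selenop carries 10, one early at codon 59 and 9 from codon 259 onward, and in Selenok, Selenos and Selenoo the tick sits at the very end.

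Depth differed between the groups: the totals implied by the RPKM steps were 834410 to 4405541 reads in HFD and 311050 to 412116 in LYC. Reads recovered gene by gene from the RPKM were fewer, 646411 to 3925424 in HFD and 270183 to 354859 in LYC. Of these recovered reads, small non-coding RNAs took 2.59% to 4.15% in HFD and 8.71% to 13.3% in LYC. Fold changes also followed gene length: on the log2 scale their median was 0.53 for the 527 tested genes under 1 kb (small non-coding RNA genes included) and -0.28 for the 1205 over 5 kb, positive meaning more in LYC. The 10 hepatocyte markers were all present, led by Alb, with a summed RPKM of 32743 to 42107 in LYC and 45369 to 49060 in HFD. By log2 fold change 5 of these markers were above 0 and 5 below, with 2 called higher (Cps1 and Tat) and 0 lower. The summed 6 cholangiocyte markers, led by Spp1, gave 15.4 to 25.1 in HFD and 2.89 to 9.25 in LYC, on few reads. Summed Kupffer cell (led by Cd5l), endothelial (Clec4g), stellate (Dcn), lymphoid (Cd3g) and erythroid (Hba-a2) markers overlapped between the groups. The part of depth and cell makeup in the results was not tested, a fit with the length trend removed was also made, and in bulk liver fewer cells of a type and less RNA per cell cannot be told apart.

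Selenop stood far above the other members. Its level was 1332, 2148 and 1494 RPKM in HFD1 to HFD3 and 671, 798 and 1221 in LYC1 to LYC3, between the 98.4 and 99.7 percentile of all genes with a read in each library. In these RPKM each LYC library was below each HFD library, and the means were 1658 ± 432 and 896 ± 288 RPKM (SD, n = 3 each). Divided by the TMM factors that the main test uses for library composition, the groups overlapped, with LYC3 at 1335 and HFD1 at 1275. The reads on Selenop alone were 79.8% to 90.5% of the reads on all 10 members. In HFD its mean was 34.1 times that of Selenof, the next member, and in LYC 15.8 times.

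The other members fell into a middle and a low group. In HFD the order by mean RPKM was Selenof (48.6), Selenot (47.8), Selenok (40.2), Selenow (29.8), Selenos (24.3) and Selenoo (22.8), followed by Selenoh (3.82), Selenon (1.16) and Selenom (0.667). The library ranges of Selenof and Selenot, Selenot and Selenok, Selenow and Selenos, Selenos and Selenoo, and Selenon and Selenom overlapped, so these neighbours did not differ beyond their spread. Selenok was above Selenow, Selenoo above Selenoh and Selenoh above Selenon in every HFD library. In LYC the order was Selenof (56.6), Selenow (33.5), Selenos (26.0), Selenoo (22.8), Selenot (18.8), Selenok (17.6), Selenoh (7.38), Selenom (1.20) and Selenon (0.725). There the ranges of all neighbours from Selenof to Selenoh overlapped, although within every LYC library Selenof was above Selenow and Selenow above Selenos.

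**Figure D2:**
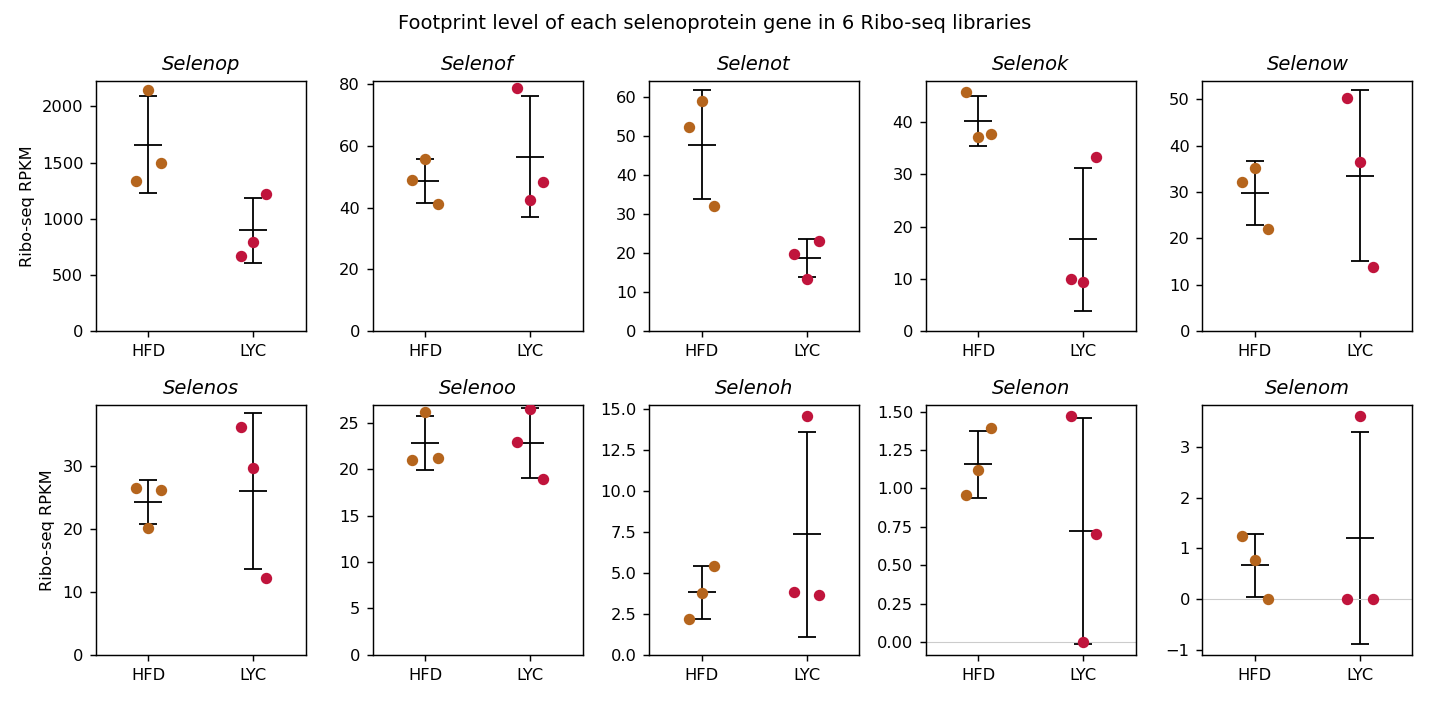
Ribo-seq RPKM (y axis, a scale of its own in each panel) of the 10 members in the 3 HFD and 3 LYC libraries (points), with mean and SD (bars). For Selenop, Selenot and Selenok all LYC points lie below all HFD points in deposited RPKM, and for the other 7 members the groups overlap.

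The order depends on the length by which reads are divided. RPKM uses the whole transcript, whereas footprints come mostly from the coding sequence, which makes up 16.5% of the transcript in Selenot and 82.5% in Selenoo. Per kilobase of coding sequence, a scale added after the data were seen, Selenot in HFD stood at 290.5 ± 84.6 and Selenof at 150.0 ± 22.2 in the same units (SD, n = 3 each). Selenot then ranked 2 and Selenof 3, and their library ranges no longer overlapped in HFD. Selenop stayed at rank 1 with 2923 ± 762, which was 10.1 times the level of Selenot, and the other 7 ranks in HFD were the same on both scales. In LYC the order per coding length was Selenop, Selenof (174.7), Selenot (114.3), Selenow (88.5), Selenok (62.9), Selenos (54.1), Selenoo (27.6), Selenoh (13.9), Selenom (2.45) and Selenon (1.49), with Selenot at rank 3 instead of 6 and Selenoo at 7 instead of 5.

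**Figure D3:**
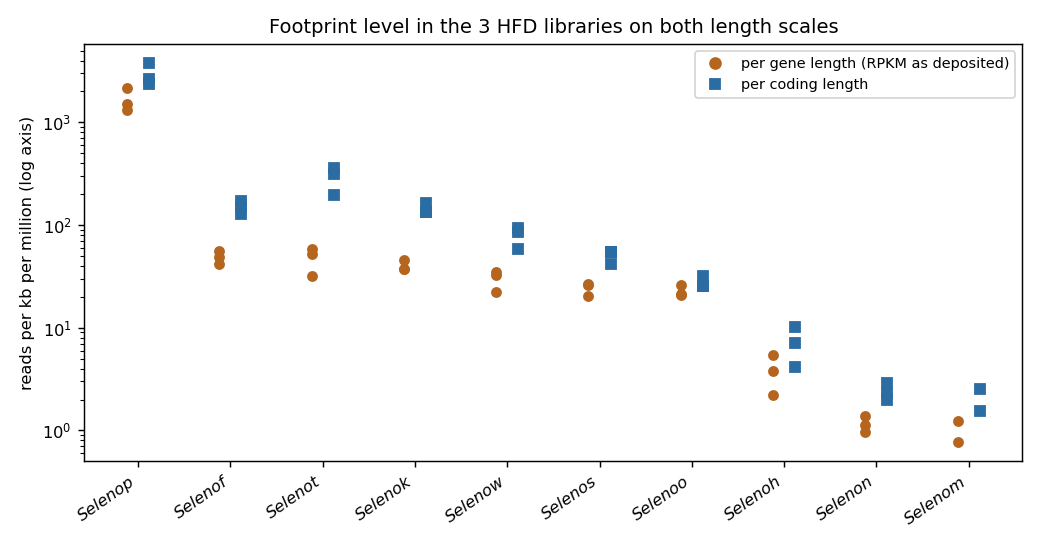
Level of each member in the 3 HFD libraries per kilobase of gene length (circles, RPKM as deposited) and per kilobase of coding sequence (squares), on a log axis; values of 0 are not drawn. Selenot moves from 47.8 to 290.5 on average, the largest relative shift of the 10 members, and Selenop leads on both scales.

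The comparison of LYC with HFD asked which of these footprint levels differed with lycopene. Of the 10 members, 7 had enough reads to be tested among 5663 genes. None of the 7 was called, where a call is an absolute log2 fold change above 1 with an unadjusted p below 0.01 in limma. Over all genes tested, 402 (7.10%) were called higher and 360 (6.36%) lower. At an adjusted p below 0.05, 373 genes (6.59%) were higher and 293 (5.17%) lower, again with 0 members in either direction. At an unadjusted p below 0.05, 2 members (Selenot and Selenok) were on the lower side and 0 on the higher side, against 853 genes (15.1%) lower and 856 (15.1%) higher of all tested. The LYC libraries lay entirely below the HFD libraries in 3 of the 7, which compares with 27.5% of all genes tested, and entirely above in 0 of 7, against 10.0% of all genes tested. These counts use the deposited RPKM. After division by the TMM factor 1 of the 7 (Selenot) lay entirely below, against 19.0% of all genes, and 1 (Selenoo, by a margin of LYC3 at 20.75 over HFD2 at 20.71) entirely above, against 19.0%. As medians of the log2 fold change, the 7 members gave 0.26 and all tested genes -0.09, and with the length trend removed the members gave -0.08 and all tested genes 0.02, so that both the sign and the order turned.

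Among the members of the endoplasmic reticulum, Selenot, a thioredoxin-like oxidoreductase, came nearest to a call. Its RPKM was 52.3, 59.0 and 32.2 in the HFD libraries against 19.9, 13.5 and 23.1 in LYC1 to LYC3. The lowest HFD library was thus above the highest LYC library, and the mean in HFD was 2.54 times that in LYC. The log2 fold change was -1.001 ± 0.330 (SE, limma), with an adjusted p of 0.0816 and a 95% interval from -1.75 to -0.25. Selenot was called lower by edgeR on recovered reads (log2 fold change -1.01, adjusted p = 0.0310) and under 4 other settings (DESeq2, total reads, totals without small non-coding RNA, and a filter at a mean RPKM of 10), so its call depends on the test, the scaling and the filter. These values rest on 1533 reads in HFD and 77 in LYC.

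Selenok, an endoplasmic reticulum membrane protein that works with the palmitoyltransferase Zdhhc6, had 45.8, 37.2 and 37.7 RPKM in HFD and 9.96, 9.47 and 33.4 in LYC. LYC3 stood close to the HFD libraries, and among them after division by the TMM factor, while LYC1 and LYC2, on 4 and 3 reads, were far below them. The log2 fold change was -1.10 ± 0.46 (SE, limma; adjusted p = 0.151, 95% interval -2.14 to -0.05). Without LYC replicate 3 it was -1.69, which passed the call. It was -0.91 without LYC replicate 1, -0.73 without LYC replicate 2 and -0.85 by edgeR on recovered reads, none of which passed.

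The other endoplasmic reticulum members that were tested overlapped between the groups. Selenof, a partner of the glycoprotein folding sensor Uggt1, had 48.9, 55.7 and 41.3 RPKM in HFD and 79.0, 42.6 and 48.2 in LYC. LYC1 was the highest of the 6 libraries and the other 2 LYC libraries were within the HFD range, with a log2 fold change of 0.46 and a 95% interval from -0.28 to 1.21 (limma). Selenos, which links Derlin channels to the ATPase Vcp in the removal of misfolded proteins, had 26.5, 20.2 and 26.2 in HFD and 36.2, 29.7 and 12.2 in LYC. LYC3 was lowest and LYC1 highest of all libraries, so that the log2 fold change of 0.26 (95% interval -0.72 to 1.24), or 0.12 with the length trend removed, changed sign without LYC replicate 1 (-0.12) and with total-read scaling (-0.02).

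Selenop, the secreted member, had a log2 fold change of -0.61 ± 0.29 (SE, limma; adjusted p = 0.191). The 95% interval, from -1.26 to 0.04, includes both 0 and values beyond the fold limit of a call. Reads on Selenop made up 0.268% to 0.433% of all reads in HFD and 0.135% to 0.246% in LYC, while those on the other 9 members made up 0.0322% to 0.0452% and 0.0260% to 0.0342%. The share of the other 9 thus overlapped between the groups and that of Selenop did not. These shares are of all reads, small non-coding RNA included. After division by the TMM factor the RPKM of Selenop did overlap (1275 in HFD1 and 1335 in LYC3). Ccdc152, which overlaps Selenop on the opposite strand, had at most 4.51 RPKM in any library; the strand of the libraries is not given in the sources used here. An exact permutation test of the RPKM over the 6 libraries gave a two-sided p of 0.1 for Selenop, Selenot and Selenok, the smallest that 3 against 3 libraries allow.

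Outside the endoplasmic reticulum, Selenow, a small cytosolic thioredoxin-like protein, had 32.3, 35.1 and 22.1 RPKM in HFD and 50.3, 36.5 and 13.8 in LYC. LYC1 was the highest and LYC3 the lowest of the 6 libraries. Its log2 fold change was 0.30 (95% interval -0.76 to 1.35, limma), and it changed sign when the length trend was removed (-0.08) and without LYC replicate 1 (-0.17). Selenoo, a mitochondrial pseudokinase that transfers AMP to proteins, had 21.00, 26.2 and 21.2 in HFD and 23.0, 26.5 and 19.0 in LYC. In deposited RPKM its group means were the most even of the members, both at 22.8. The log2 fold change of Selenoo after composition scaling was 0.28 (95% interval -0.30 to 0.86), or -0.004 by total reads. After composition scaling Selenos (0.26) was nearer 0. Tubgcp6 overlaps Selenoo on the opposite strand at 0 to 2.41 RPKM.

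Selenoh, Selenon and Selenom did not pass the filter on low counts, and no difference could be detected at this depth. Selenoh, a nucleolar protein, had 2.22, 3.78 and 5.45 RPKM in HFD and 3.84, 14.6 and 3.68 in LYC, the latter on 5 reads in all. Selenon, a calcium-sensing endoplasmic reticulum protein known from a congenital myopathy, had 0.958, 1.12 and 1.39 in HFD and 1.47, 0 and 0.704 in LYC. Its 0 in LYC2 allows up to 2.80 RPKM, the worth of 3 reads, which is above every HFD value. Selenom, an endoplasmic reticulum protein abundant in brain, was at 1.24, 0.765 and 0 in the HFD libraries and at 0, 3.61 and 0 in LYC1 to LYC3. The single LYC2 read of Selenom was worth 3.61 RPKM, and the 0 values in LYC1 and LYC3 allow up to 8.55 and 8.18 RPKM. These limits cover counting error only.

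**Figure D4:**
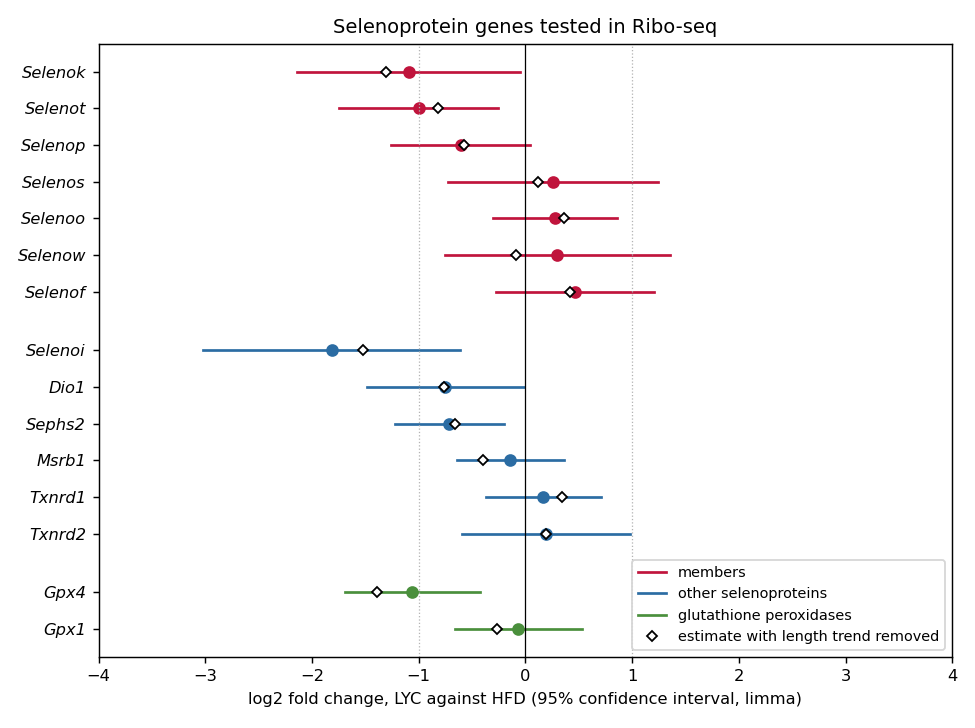
Log2 fold change of LYC against HFD (x axis, positive when higher in LYC) with its 95% confidence interval from limma, for the 7 tested members (red), 6 other selenoproteins (blue) and 2 glutathione peroxidases (green). Open diamonds give the estimate with the length trend removed, and dotted lines mark 1 and -1. Selenok, Selenot and Selenop have estimates below 0, the other 4 members above 0, and the intervals of Selenop and of those 4 span 0.

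Set beside genes of like length, Selenok, of 1018 bases, was at -1.10 and Selenot, of 3570 bases, at -1.001 on the log2 scale, while the median was 0.08 for all genes of 1 to 2 kb and -0.18 for those of 3 to 5 kb. With the trend removed in limma, Selenok was at -1.31 (adjusted p = 0.118), Selenot at -0.82 (adjusted p = 0.127) and Selenop at -0.57 (adjusted p = 0.190).

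**Figure D5:**
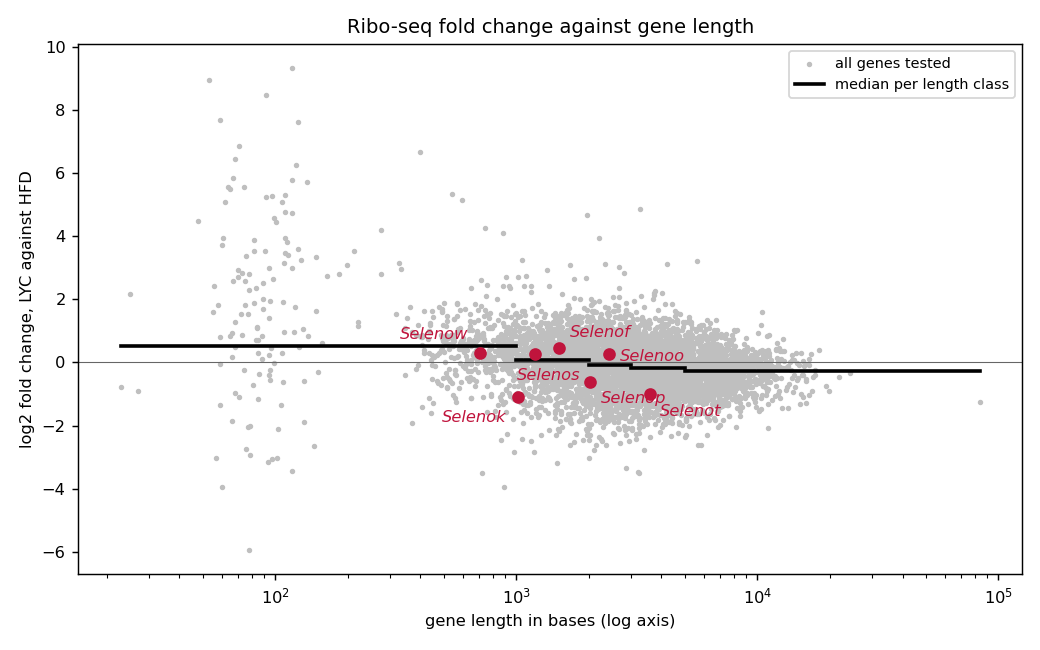
Log2 fold change of LYC against HFD (y axis) against gene length in bases (x axis, log scale) for the 5663 genes tested (grey), with the 7 tested members in red and the median of each of 5 length classes as black lines. The medians run from 0.53 under 1 kb to -0.28 over 5 kb, and Selenok and Selenot lie well below the line of their class.

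Of 10 other selenoprotein genes, 6 were tested, 0 were called higher and 1 lower, with a median log2 fold change of -0.43. The gene called lower was Selenoi, an ethanolamine phosphotransferase of phospholipid synthesis, at 13.9, 21.5 and 14.7 RPKM in HFD and 1.14, 2.41 and 9.09 in LYC (log2 fold change -1.82 ± 0.53 SE, limma adjusted p = 0.0580), a call lost in 9 of 17 alternatives, among them the removal of the length trend (-1.53). LYC3 was again the LYC library nearest to HFD. Sephs2, which makes the selenium donor and is itself a selenoprotein, had 351.2 to 525.1 RPKM in HFD and 202.5 to 215.2 in LYC, with a log2 fold change of -0.71 (adjusted p = 0.0723) that passed the call with total reads (-1.01). Msrb1, a methionine sulfoxide reductase, gave -0.14, or -0.39 with the length trend removed. Dio1, the liver deiodinase of thyroid hormone, gave -0.75 (adjusted p = 0.160) and passed the call without LYC replicate 3 (-1.13). It gave -0.53 without LYC replicate 1 and -0.64 without LYC replicate 2, and passed in neither. Dio2, Dio3 and Selenov had 0 reads in all 6 libraries.

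Of the 4 selenocysteine glutathione peroxidases, 2 were tested and 1 was called. Gpx4, which reduces lipid hydroperoxides in membranes, fell, with 219.7, 325.5 and 250.9 RPKM in HFD and 80.4, 163.2 and 80.1 in LYC and a log2 fold change of -1.06 ± 0.28 (SE, limma; adjusted p = 0.0418), lost in 4 of 17. Gpx1, the abundant cytosolic enzyme, gave -0.07 (adjusted p = 0.893), or -0.27 with the length trend removed. Gpx3, the plasma form, had at most 3.97 RPKM in any library.

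Of 16 genes for the recoding of UGA, 10 were tested, 1 was called higher and 1 lower, with a median log2 fold change of -0.40, or -0.17 with the length trend removed. Eefsec, the elongation factor that brings the selenocysteine tRNA, was called lower at 9.80, 11.02 and 11.6 RPKM in HFD and 2.05, 5.20 and 0.982 in LYC (log2 fold change -1.59 ± 0.42 SE, limma adjusted p = 0.0443), lost in 4 of the 14 alternatives that tested it. Its LYC values rest on 2, 4 and 1 reads. Ncl, nucleolin, which binds selenocysteine insertion elements, was called higher at 9.60 to 12.05 in HFD and 13.8 to 27.3 in LYC (log2 fold change 1.05, adjusted p = 0.0632), a call lost in 11 of 17. Rpl30, a ribosomal protein that also binds the element, gave 0.79 (adjusted p = 0.0983) and 0.26 with the length trend removed. Celf1, an RNA-binding protein, gave -0.74 (adjusted p = 0.227).

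Of 6 genes of selenium handling, 4 were tested and 0 were called. Cth, the enzyme that splits cystathionine and also selenocystathionine, gave a log2 fold change of 0.74 (adjusted p = 0.0640), and Selenbp1, a selenium-binding protein, 0.26 (adjusted p = 0.659). Selenbp2, a near copy of Selenbp1 whose reads may be split between them, had 47.0, 8.03 and 62.9 RPKM in HFD and 59.8, 43.6 and 18.6 in LYC.

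Among 10 partners of the endoplasmic reticulum members, 8 were tested, 0 were called higher and 1 lower, with a median of -0.60. Syvn1, the ubiquitin ligase of the misfolded-protein channel, was at 45.7, 14.8 and 32.1 RPKM in HFD and 4.38, 6.49 and 4.89 in LYC (log2 fold change -1.97 ± 0.45 SE, limma adjusted p = 0.0271), and stayed called in all 17 alternatives. Derl1, the Derlin that binds Selenos, gave -0.65 (adjusted p = 0.168), Atp2a2, the calcium pump, -0.41 (adjusted p = 0.447), or -0.15 with the length trend removed. Vcp gave 0.89 (adjusted p = 0.0893) and passed the call with the length trend removed (1.06) and without LYC replicate 3 (1.17). In the main fit Vcp was the only 1 of the 8 tested partners with a log2 fold change above 0, the other 7 being below. Over all tested genes 54.7% were below 0. With the length trend removed Vcp was not alone above 0, and the median of the partners was -0.41 (0.02 over all tested genes).

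Transcription of Selenop in hepatocytes is known to follow that of gluconeogenic genes, and 5 of 6 genes of that list were tested. Pck1, the enzyme that commits carbon to glucose synthesis, was called higher, at 253.3, 530.4 and 405.4 RPKM in HFD and 957.5, 1731 and 747.2 in LYC (log2 fold change 1.79 ± 0.34 SE, limma adjusted p = 0.0142), and stayed called in all 17 alternatives. G6pc, the last enzyme of the pathway, gave -0.19 (adjusted p = 0.743) and Hnf4a, a hepatocyte transcription factor, -0.36 (adjusted p = 0.369), or -0.14 with the length trend removed. Over the 5 tested genes 2 were below 0 and 3 above, where 54.7% of all tested genes were below 0. Their median was 0.05, or 0.26 with the length trend removed.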

How the data were processed

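Per the labels and the study's methods, the authors used cutadapt and Bowtie2 for cleaning, STAR for alignment (build GRCm38/mm10) and FANSE2 for gene quantification, and deposited RPKM for the Ribo-seq libraries. A second table, labelled RNA-seq, holds the authors' read counts and RPKM, from which gene lengths were taken. Versions, annotation and filters are not given in the sources used here. Whole reads were recovered from the RPKM steps: with table lengths, 71.9% of values in HFD1 came out whole within 0.02 reads, and the smallest fitting length was taken for 4620 other genes. The 4 entries that shared a name were left out. The main test was limma 3.58.1 (trend) on log2(RPKM / TMM factor + 1), two-sided, over genes kept by filterByExpr of edgeR 4.0.16, with Benjamini-Hochberg adjustment over all genes tested. A fold change on this scale understates that of low genes. DESeq2 1.42.0 was an alternative. The recovery of reads and the limma, edgeR and DESeq2 fits were tested on simulated reads. The steps for codon positions, level orders and read shares were not. Selenocysteine codons were read from RefSeq on GRCm38. The named genes are all members, every called gene of 6 related lists and the 3 highest in HFD of each, and the highest gene of each marker list. The members and lists were chosen with earlier results of these data known. Totals per library limit the precision to 2.43 to 3.21 RPKM per read on 1 kb in LYC.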

Additional observations from a re-analysis of the deposited data

How the results depend on the processing

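Counts are given as higher and lower in LYC. Against 402 and 360 genes, the counts were 199 and 102 at p below 0.001, 234 and 656 with total reads and no TMM factor, 336 and 218 with a pseudocount of 5, and 366 and 852 with no filter on low genes. Leaving out each library in turn gave 273 to 558 genes higher and 146 to 742 lower, the 742 without LYC replicate 3, 176 without HFD replicate 1, 179 without HFD replicate 2 and 146 without HFD replicate 3. Total-read scaling also moved the median of all genes from -0.09 to -0.36 (log2). With edgeR 497 and 400 genes and with DESeq2 515 and 389 were called. The causes were not tested.

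No member was called higher under any of these settings. One member was called lower with edgeR, with DESeq2, with totals without small non-coding RNA and with a mean RPKM of at least 10 (Selenot in each, at -1.01, -1.01, -1.18 and -1.17). With total reads there were 2, Selenot (-1.29) and Selenok (-1.38). Leaving out each library gave 0 to 1 members lower, the 1 being Selenok without LYC replicate 3. Selenop and Selenof kept their sign and were not called in 17 of 17 alternatives, from -0.90 to -0.48 and from 0.12 to 0.71. Selenos went to -0.023 and Selenoo to -0.0044 with total reads, and Selenow to -0.085 with the length trend removed. Leaving out each library gave -0.12 to 0.68 for Selenos and -0.17 to 0.79 for Selenow, both lowest without LYC replicate 1 and highest without LYC replicate 3. Chosen after seeing the data, division by the TMM factor left 1 tested member (Selenot) with all LYC below all HFD libraries, in place of 3.

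Of the related genes, the calls of Pck1 and Syvn1 held in all 17 alternatives, and calls were gained by Vcp (1.06 with the length trend removed, 1.17 without LYC replicate 3), Dio1 (-1.13 without LYC replicate 3) and Sephs2 (-1.01 with total reads). Leaving out each library, Selenoi ran from -2.50 to -1.38 and lost its call in 5 of 6, Gpx4 from -1.33 to -0.92 and lost it in 4, Eefsec from -1.99 to -1.23 and lost it in 3 of those that tested it, and Ncl from 0.87 to 1.24 and lost it in 5. Gpx1 ran from -0.26 to 0.10 (highest without HFD replicate 3), G6pc from -0.56 to 0.079 (highest without HFD replicate 2) and Selenbp1 from -0.029 (without HFD replicate 2) to 0.55, or -0.035 with total reads.

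A replicate block gave 399 and 340 genes and 0 members. Of the 19 related genes refitted, it changed only the call of Ncl, which was lost at an unchanged 1.05. Same-numbered libraries are different mice, and the correlations of their deviations, 0.11, 0.025 and -0.0038, do not pair them. For the libraries labelled RNA-seq, limma on RPKM without a TMM factor, where the median of all genes was -1.03, turned Selenof to -0.58, Selenos to -0.68, Selenow to -0.73 and Selenoo to -0.71, and put Selenop (-1.67), Selenok (-2.06) and Selenot (-2.01) further down, Selenop and Selenok now past the call limits. LYC depth limits Selenoh, Selenon and Selenom, with 5, 3 and 1 reads in all.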

Other observations

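The 6 libraries labelled RNA-seq, with columns assigned by name, were set beside the Ribo-seq libraries. Each column of that table correlated best, across 24586 genes on a log scale, with a single Ribo-seq column of its own group: HFD1 with HFD2 (Pearson r = 0.958), HFD2 with HFD3 (0.952), HFD3 with HFD1 (0.950), and LYC1 to LYC3 with the columns of the same number (0.930, 0.928 and 0.932). These values run across genes, which share libraries, and are a description. Selenop had 19602, 2586 and 7468 counts in HFD there and 535, 505 and 1022 in LYC, where the matching Ribo-seq columns gave 19071, 2512 and 7316 and 533, 500 and 1014 recovered reads. The table was therefore not read as a separate measurement of mRNA, and no translational efficiency was computed. Transcript amount and ribosome load cannot be told apart for the members. Which label is right for these counts was not tested. The Ribo-seq label was taken as given, and the levels are called footprint levels on that label alone. By edgeR on those counts, Selenot was at -1.01 on the log2 scale (adjusted p = 0.0267), Selenop at -0.56 (adjusted p = 0.236) and Selenok at -0.85 (adjusted p = 0.204), and 552 genes were called higher and 434 lower of 5921.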
